A study of Mus musculus with 8 samples.

Results

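The miRNAs mmu-miR-574-5p, mmu-miR-1187 and mmu-miR-3082-5p are 3 mouse miRNAs rich in G and U, and all of their probes on the array carry stretches in which A and C alternate. They were selected by name from the 1881 miRNAs on the array because earlier results of these data had shown them higher in LPS kidneys and their probes to hold AC repeats. Their LPS and sham levels are therefore given as a description, without a test. The arrays were Agilent mouse miRNA arrays hybridised with Cy3-labelled total RNA, and held 4 kidney samples of mice injected intraperitoneally with 10 µg/g lipopolysaccharide (LPS), an outer-membrane molecule of Gram-negative bacteria, and 4 of sham mice that received saline. All kidneys were taken after 24 h and 100 ng of RNA was labelled per sample. The labels give no strain, sex or age, and do not state that each sample came from its own animal, so spreads and p-values measure the variation between these samples, which may be technical.

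MicroRNAs repress messenger RNAs that pair with bases 2 to 8 of the miRNA, the seed. MiR-574-5p is processed from the 5′ arm of its hairpin, and in human cells its GU-rich sequence has been reported to bind the RNA-binding protein CELF1 and act as a decoy for it. MiR-1187 has been reported to target caspase-8 in mouse hepatocytes, while little is known of miR-3082-5p. A probe for a GU-repeat miRNA is an AC repeat, so such probes resemble each other and any RNA that carries a GU repeat can pair with part of them.

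The mature sequences of all 3 were found in the RefSeq table (GRCm38.p6) and are shown 5′ to 3′ with the seed in capitals, since the repeat runs through or starts inside the seed.
miR-574-5p: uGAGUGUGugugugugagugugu
miR-1187: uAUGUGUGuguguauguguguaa
miR-3082-5p: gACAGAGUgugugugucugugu
The longest stretch of alternating G and U was 13 bases in miR-574-5p, 11 in miR-1187 and 10 in miR-3082-5p. Of 1679 mature mouse miRNAs in that table, 3 held such a stretch of at least 10 bases (0.179%), and these were the 3 shown. The RefSeq table held no sequence of miR-466i-5p, a detected miRNA described further below, so this count does not cover it. Its probes alternate A and C over all of their 15 and 16 bases, longer than any stretch shown here. The seeds differed between the 3, and 0 other miRNAs of the table had any of them. The sequences overlapped, in part within the seeds, with a longest shared run of 12 letters between miR-574-5p and miR-3082-5p, 11 between miR-574-5p and miR-1187, and 10 between miR-1187 and miR-3082-5p.

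On GRCm38.p6, miR-574-5p lies on the plus strand of chromosome 5 from 64970328 to 64970350, within the annotated spans of Fam114a1 and of Tlr6, a receptor for bacterial lipopeptides. MiR-1187 lies on the minus strand of chromosome 5 from 82798964 to 82798986, with no annotated gene around it. MiR-3082-5p lies on the minus strand of chromosome 17 from 25831406 to 25831427, within the spans of Stub1, a ubiquitin ligase, and Jmjd8. The table used holds no exons, so exon or intron was not assigned. None of the 3 is on chromosome 2, where Sfmbt2 and the large cluster of repeat-rich miRNAs in its intron are found.

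Each miRNA had 2 probes that differed by 1 base in length, with 15 spots per probe on every array. They are shown 5′ to 3′ with the longest stretch of alternating A and C in capitals, because this stretch is what they share.
miR-574-5p, 17 bases: acacactCACACACACA
miR-574-5p, 18 bases: acacactCACACACACAC
miR-1187, 18 bases: ttacacacatACACACAC
miR-1187, 19 bases: ttacacacatACACACACA
miR-3082-5p, 15 bases: acacagACACACACA
miR-3082-5p, 16 bases: acacagACACACACAC
Every probe was fully complementary to its own miRNA, down to the last base of the 3′ end. The probes of miR-574-5p matched it from base 7 or 6, those of miR-1187 from base 5 or 6 and those of miR-3082-5p from base 8 or 7, so the repeat stretch of the probe faced the middle of the miRNA. The capitals run for 8 to 11 bases. On the array 25 of 4415 probes, for 13 miRNAs, held a stretch of at least 8 bases on the printed strand.

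The probes of each also pair in part with the other members. The 18-base probe of miR-574-5p has a complementary run of 10 letters in miR-1187 and of 10 in miR-3082-5p. The 16-base probe of miR-3082-5p has runs of 10 letters in miR-574-5p and in miR-1187, and the 19-base probe of miR-1187 has 9 in each of the other two. Of the remaining miRNAs in the table, miR-32-3p had a run of 10 letters with the probes of miR-574-5p, and miR-466j and miR-466k runs of 10 with the 19-base probe of miR-1187, but none of these 3 passed the detection filter here. For 0 of the 6 probes was any other miRNA in the table complementary over the full length, and miR-466i-5p was not among those compared. How much of a spot's signal came from other RNAs was not tested.

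All 3 miRNAs were detected on all 8 arrays, and for each the lowest LPS array exceeded the highest sham array. A level is the log2 signal after division by the array's 75th percentile, summed over the probes of a miRNA. MiR-574-5p was at -0.29, -0.55, -0.74 and -0.68 in LPS replicates 6, 10, 11 and 12, against -1.49, -1.61, -1.68 and -1.71 in sham replicates 5, 6, 7 and 8. Its mean level was -0.57 ± 0.20 in LPS and -1.62 ± 0.10 in sham kidneys (SD, n = 4 each), a log2 difference of 1.06 ± 0.10 (SE), or 2.08-fold. The lowest LPS array thus lay above the highest sham array, and the spread was wider among LPS arrays.

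MiR-1187 was at -1.27, -1.63, -1.76 and -1.66 in LPS replicates 6, 10, 11 and 12, against -2.42, -2.55, -2.71 and -2.70 in sham replicates 5, 6, 7 and 8. The means were -1.58 ± 0.22 in LPS and -2.60 ± 0.14 in sham kidneys (SD, n = 4 each), a log2 difference of 1.01 ± 0.12 (SE), or 2.02-fold. The groups were again apart, with LPS replicate 6 the highest of the LPS arrays and sham replicate 5 the highest of the sham arrays, as for miR-574-5p.

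MiR-3082-5p was at -1.29, -1.73, -1.89 and -1.65 in LPS replicates 6, 10, 11 and 12, against -3.10, -3.21, -3.37 and -3.34 in sham replicates 5, 6, 7 and 8. The means were -1.64 ± 0.25 in LPS and -3.25 ± 0.12 in sham kidneys (SD, n = 4 each), a log2 difference of 1.61 ± 0.13 (SE), or 3.06-fold. This value rests in part on a probe that was not well above background in sham kidneys and is described further below. The differences of the 3 miRNAs ranked 8 (miR-3082-5p), 15 (miR-574-5p) and 18 (miR-1187) from the top among the 338 tested miRNAs, whose median difference was -0.08.

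**Figure D1:**
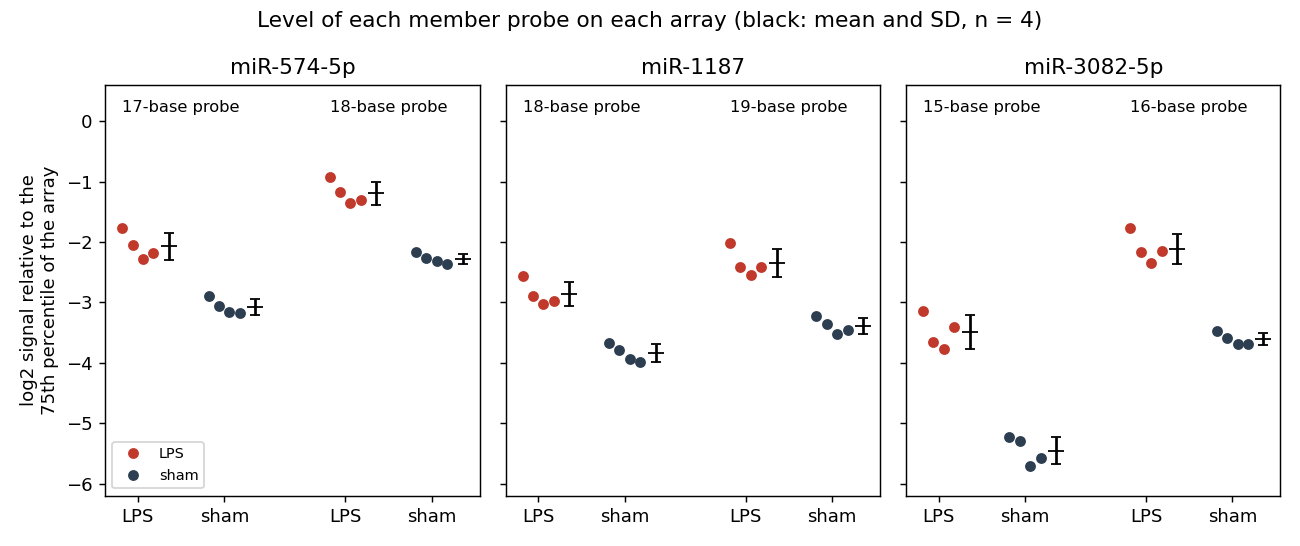
Log2 signal divided by the array's 75th percentile (vertical axis) for both probes of miR-574-5p, miR-1187 and miR-3082-5p, with 1 point per array (4 LPS, red, and 4 sham, dark) and the mean and SD in black. Every LPS point lies above every sham point of its probe, and the 15-base probe of miR-3082-5p has the lowest sham values, from -5.70 to -5.23.

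For orientation, 50 of the 338 tested miRNAs were called higher in LPS kidneys (14.8%) and 86 lower (25.4%) by limma at an adjusted p under 0.05. Every LPS array lay above every sham array for 12.1% of the tested miRNAs and for 3 of these 3, and 5.62% were higher by 1 log2 unit or more, again with these 3 among them. The 3 were chosen for this contrast, so nothing is read from these shares.

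**Figure D2:**
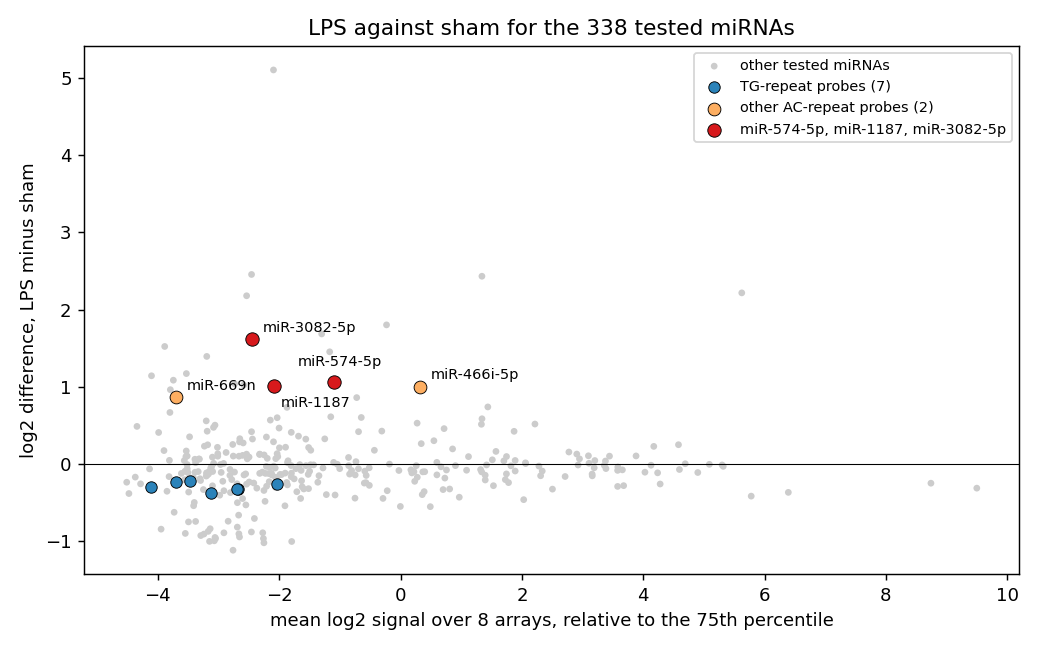
Log2 difference, LPS minus sham (vertical axis), against the mean log2 level over 8 arrays (horizontal axis) for the 338 tested miRNAs, 1 point each. MiR-574-5p, miR-1187 and miR-3082-5p (red) lie at 1.06, 1.01 and 1.61, the other miRNAs with AC-repeat probes (orange) at 1.002 (miR-466i-5p) and, for miR-669n, at a value measured against sham arrays below background, and those with TG-repeat probes (blue) between -0.37 and -0.23.

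The probes were then taken singly, as background-subtracted intensities that had not been scaled between arrays. The 17-base probe of miR-574-5p gave 150, 130, 108 and 109 in LPS replicates 6, 10, 11 and 12, against 65.1, 56.6, 57.0 and 55.4 in sham replicates 5, 6, 7 and 8. Its 18-base probe gave 268, 238, 207 and 199 in LPS and 107, 97.7, 102 and 97.4 in sham kidneys, in the same order of replicates. After scaling, the log2 differences of these probes were 0.998 for the shorter and 1.09 for the longer probe.

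For miR-1187, the 18-base probe gave 85.8, 72.5, 64.8 and 63.0 in LPS and 38.0, 34.2, 33.4 and 31.7 in sham kidneys. The 19-base probe gave 126, 101, 90.5 and 93.1 in LPS and 51.8, 46.1, 44.4 and 45.4 in sham kidneys. The scaled log2 differences were 0.98 and 1.04. All spots used of these 4 probes were well above background on all 8 arrays.

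For miR-3082-5p, the 16-base probe gave 150, 120, 103 and 111 in LPS and 43.5, 39.0, 39.6 and 38.8 in sham kidneys, a log2 difference of 1.5 or 2.83-fold, with all spots used well above background. Its 15-base probe gave 58.0, 42.8, 38.6 and 46.6 in LPS kidneys, against 12.8, 12, 9.80 and 10.5 in sham kidneys. On all 4 LPS arrays 15 of 15 spots of this shorter probe were well above background, and on the sham arrays 0 were. Its sham level is therefore only a bound, and the probe was at least 2.38-fold higher in LPS kidneys, set against the lowest signal of any probe above background on each sham array. The measured means were -3.49 in LPS and -5.45 in sham kidneys.

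Of 720 spots of the 6 probes over the 8 arrays, 9 were flagged as outliers and left out, which left at least 13 spots per probe and array. The coefficient of variation over spots of a probe was 5.31% to 7.51% for the 18-base probe of miR-574-5p and 6.02% to 17.8% for the 16-base probe of miR-3082-5p. It reached 42.5% for the 15-base probe of miR-3082-5p, whose sham spots lay near background. The median standard error from the spots was 0.03 to 0.08 on the log2 scale for the 6 probes. The SD between arrays of a group was larger, between 0.08 and 0.28.

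Before background subtraction the groups were also apart. The shorter probe of each miRNA gave the lower ratio of group means, 1.63 for miR-574-5p, 1.48 for miR-1187 and 1.64 for miR-3082-5p. The values that follow are those of the longer probes. The mean raw spot signal of the 18-base probe of miR-574-5p was 241 to 313 in LPS and 139 to 152 in sham kidneys, a ratio of group means of 1.88. For the 19-base probe of miR-1187 it was 134 to 171 in LPS and 86.6 to 96.4 in sham kidneys, a ratio of 1.62. For the 16-base probe of miR-3082-5p it was 147 to 197 in LPS and 80.6 to 88.3 in sham kidneys, a ratio of 1.96. The amount subtracted was almost equal in both groups, at 44.0 in LPS and 43.7 in sham for the miR-574-5p probe, 43.4 and 43.2 for the miR-1187 probe, and 43.8 and 43.7 for the miR-3082-5p probe. With normexp, which adds an offset of 50 to the signal, the log2 differences were 0.66 for miR-574-5p, 0.45 for miR-1187 and 0.63 for miR-3082-5p.

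Within a group the 3 miRNAs moved together from array to array. LPS replicate 6 lay above the LPS mean by 0.28 for miR-574-5p, 0.31 for miR-1187 and 0.35 for miR-3082-5p, and LPS replicate 11 was the lowest for all 3, at -0.18, -0.18 and -0.25 from the mean. Sham replicate 5 lay above the sham mean by 0.14, 0.17 and 0.15, and sham replicates 7 and 8 below it for all 3. Over the 8 arrays the deviations from the group means correlated at 0.97 between miR-574-5p and miR-1187, 0.975 between miR-1187 and miR-3082-5p and 0.93 between miR-574-5p and miR-3082-5p. These values describe 8 arrays, on which the 3 miRNAs share the RNA sample and the scaling factor.

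**Figure D3:**
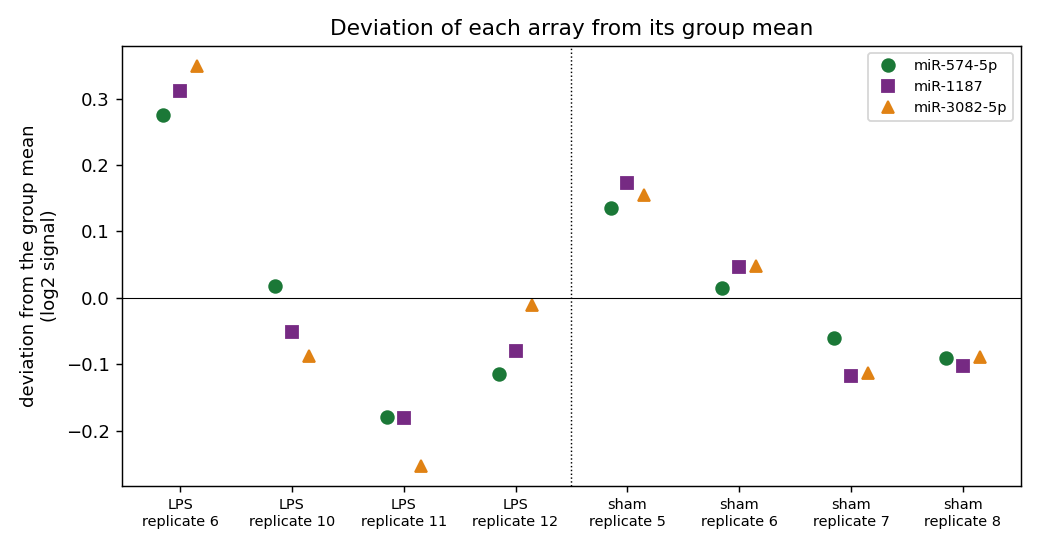
Deviation of the log2 level from the group mean (vertical axis) on each array (horizontal axis, LPS arrays left of the dotted line and sham arrays right of it), with 1 symbol per miRNA. The 3 symbols of an array lie close together, highest on LPS replicate 6 (0.28 to 0.35) and on sham replicate 5 (0.14 to 0.17).

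All arrays were on 1 slide and came from 1 scan, with sham arrays in slide row 1 and LPS arrays in row 2, so row and group cannot be told apart. LPS replicate 6 and sham replicate 5 both lay in slide column 1. Within columns 1, 2, 3 and 4, each with 1 array of each group, the log2 difference was 1.20, 1.06, 0.94 and 1.03 for miR-574-5p. For miR-1187 it was 1.15, 0.92, 0.95 and 1.04, and for miR-3082-5p 1.81, 1.48, 1.47 and 1.69. The difference was thus positive in 4 of 4 columns for each miRNA and widest in column 1.

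The miRNAs with levels most like these over the 8 arrays, by Pearson's r among the 338 tested, were mostly each other and miR-466i-5p. For miR-574-5p the order was miR-466i-5p (r = 0.997), miR-1187 (0.997), miR-3082-5p (0.995), the myeloid miR-223-3p (0.99) and miR-146b-5p (0.988), a repressor of NF-κB signalling. For miR-1187 it was miR-466i-5p (0.998), miR-574-5p (0.997), miR-3082-5p (0.995), miR-223-3p (0.989) and miR-669n (0.983). For miR-3082-5p it was miR-574-5p (0.995), miR-1187 (0.995), miR-466i-5p (0.994), miR-146b-5p (0.99) and miR-223-3p (0.989). The r includes the difference between LPS and sham arrays, which was 0.86 for miR-223-3p and 1.09 for miR-146b-5p. The probes of miR-466i-5p can also pair with the repeat stretches of these miRNAs, so its likeness to them is not independent.

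By the deviations from the group means, from which the LPS effect is removed, the most alike were again largely AC-repeat entries. For miR-574-5p these were miR-1187, miR-466i-5p (0.96) and miR-3082-5p, followed by miR-7082-5p (0.90) and miR-3473g (0.889). For miR-1187 they were miR-3082-5p, miR-466i-5p (0.972) and miR-574-5p, followed by miR-7082-5p (0.949) and miR-669n (0.874). For miR-3082-5p they were miR-1187, miR-7082-5p (0.969), miR-466i-5p (0.945) and miR-574-5p, followed by miR-677-3p (0.908). The levels of miR-7082-5p, miR-3473g and miR-677-3p differed by 0.21, -0.18 and -0.05 between LPS and sham. In the same lists miR-466i-5p differed by 1.002, and miR-669n was at least 1.43-fold higher by its brighter probe under the main background subtraction. A shared deviation across arrays thus came with a like difference between groups for some of the listed miRNAs and not for others. The source of the shared deviation was not tested.

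The opposite arms of the hairpins were mostly not detected. MiR-574-3p, the other arm of the miR-574 hairpin, has 4 probes. Its brightest probe had intensities of 16.6 ± 1.34 in LPS and 15.5 ± 1.28 in sham kidneys (SD, n = 4 each) and was well above background on 0 of 4 LPS and 1 of 4 sham arrays, and the other three probes on none. MiR-3082-3p stayed below background throughout, with mean probe intensities between -1.94 and -1.30. Neither arm passed the filter, so no fold change is given for them, and the array holds no second arm of miR-1187.

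Among the other entries with AC-repeat probes, 10 besides the 3 described, 8 were below background on every array and 2 were tested. MiR-466i-5p, of the repeat-rich miR-466 family, had the longest stretch, as the 15 and 16 bases of its probes alternate throughout. Its level was higher by 1.002 ± 0.11 log2 units (SE, limma adjusted p = 3.03e-04). These probes are also complementary to the whole alternating stretches of miR-574-5p (13 bases), miR-1187 (11) and miR-3082-5p (10). The value is therefore not independent of those miRNAs, and their part in this signal was not tested. MiR-669n was above background on all 4 LPS arrays and 0 of 4 sham arrays, so it passed the filter only through the LPS group and has only a bound. By its brighter probe it was at least 1.43-fold higher under the main background subtraction, with measured means of -4.22 in LPS and -5.02 in sham kidneys. With normexp, whose offset makes differences of dim probes smaller, miR-669n was higher by 0.15 log2 units. Because it passed through the LPS group only, no p-value is given for it. Both rises were known when the list was drawn up.

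The 8 that stayed below background were miR-466a-5p, miR-466c-5p, miR-466p-5p, miR-669e-5p, miR-672-5p, miR-32-3p, miR-3097-5p and miR-6348. Their stretches of 8 or 9 bases were no longer than the 8 to 11 bases of the detected probes of miR-574-5p, miR-1187 and miR-3082-5p. A stretch of 8 or 9 bases was therefore also present in probes that were not well above background. With a stretch of at least 10 bases there were 3 entries, miR-574-5p, miR-3082-5p and miR-466i-5p, and all 3 were tested. Whether the length of the stretch bears on the signal was not tested.

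Of the 551 probes above background on all 8 arrays, 7 held an AC stretch of at least 8 bases. These were 5 of the 6 probes of the 3 miRNAs and both of miR-466i-5p, and their log2 differences lay between 0.98 and 1.5. The 2 probes of miR-466i-5p were at 1.0001 and 1.003. The 472 probes with stretches of 0 to 3 bases had a median of -0.10 (from -1.18 to 2.43), and the 70 with 4 to 5 bases a median of -0.01 (from -1.02 to 1.84). The 2 probes with 6 bases, both for let-7b-5p, were at -0.02 and 0.02. Since only 7 probes had the longer stretches and most of them were selected, this is a description.

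**Figure D4:**
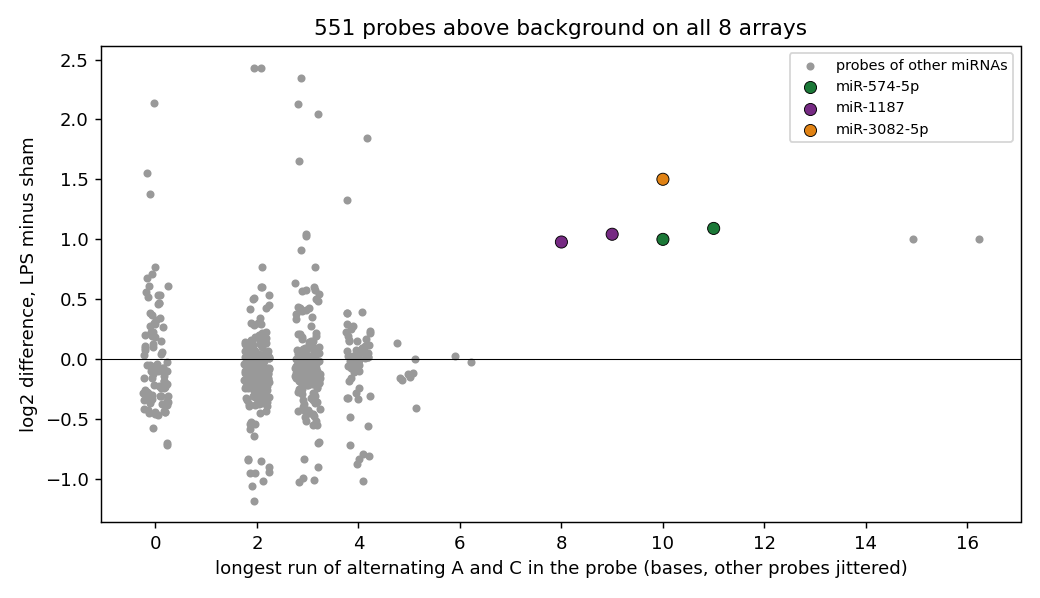
Log2 difference, LPS minus sham (vertical axis), against the longest stretch of alternating A and C in the probe (horizontal axis, bases) for the 551 probes above background on all 8 arrays, with probes of other miRNAs jittered sideways. The 7 probes with 8 bases or more lie between 0.98 and 1.5, and no probe lies between 6 and 8 bases.

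Entries with the opposite repeat were examined next. Probes with alternating T and G over at least 8 bases detect AC-rich miRNAs, and 17 entries on the array had them, of which 7 were tested. By limma 0 were called higher and 4 lower, against 25.4% of all tested miRNAs called lower. The median log2 difference was -0.30, with values from -0.37 to -0.23. At an unadjusted limma p under 0.05 4 passed, all of them lower. Among the 4 called lower was miR-669c-3p, detected on 3 of 4 LPS arrays, which passed the filter only through the sham group. Where detection on all 8 arrays was required, 3 were called lower. Ordered by level, the brightest were miR-669p-3p (-0.26 ± 0.13 SE, limma adjusted p = 0.138), miR-466h-3p (-0.33 ± 0.08, limma adjusted p = 0.0185), miR-467f (-0.32 ± 0.10, limma adjusted p = 0.0398) and miR-466f-3p (-0.37 ± 0.11, limma adjusted p = 0.0265). The lower calls depended on the scaling. With the 75th percentile over all probes or without scaling 0 of the 7 were called, and with the labelling spike-ins described further below 6. Without sham replicate 7 or LPS replicate 11 also 0 were called. No difference between AC-repeat and TG-repeat entries was tested.

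The tissue label was checked on detection. All 6 listed miRNAs of kidney tubules, among them miR-192-5p, miR-194-5p and miR-204-5p, were detected on all 8 arrays. By limma 3 of the 6 were called lower, beside 25.4% of all tested miRNAs, and 0 higher. Those called lower were miR-192-5p at -0.28, miR-194-5p at -0.33 and miR-204-5p at -0.19, with limma adjusted p-values of 0.0277, 0.0107 and 0.0378. Those not called were miR-10a-5p at 0.10, miR-10b-5p at 0.11 and miR-30a-5p at -0.11. The summed level of the 6 was 5.94 to 6.15 in LPS and 6.09 to 6.20 in sham kidneys. The part of tubule cells in the levels of the 3 GU-repeat miRNAs was not tested. Neither arm of the liver miRNA miR-122 was detected. Of the listed striated muscle miRNAs only miR-1a-3p was detected, with summed levels of -2.73 to -2.59 in LPS and -3.08 to -2.52 in sham kidneys.

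Some markers of blood cells were called higher in LPS kidneys. For leukocytes these were 2 of 5 tested, beside 14.8% of all tested miRNAs. Of 4 listed red-cell miRNAs, miR-451a and miR-144-3p were tested. MiR-451a was called higher (limma adjusted p = 0.0285). MiR-144-3p was detected on only 2 of 4 sham arrays and passed the filter only through the LPS group. It is therefore not counted as a call, and no p-value is given for it. MiR-486a-5p was detected on 2 LPS arrays only, and miR-144-5p was below background on all arrays. Their summed level was 3.80, 1.03, 3.28 and 2.61 in LPS replicates 6, 10, 11 and 12, against 0.64, -0.95, -0.36 and 1.66 in sham replicates 5, 6, 7 and 8. LPS replicate 6 was the highest LPS array both for this sum and for the 3 GU-repeat miRNAs, whereas LPS replicate 11 was next for the sum and lowest for the 3, and sham replicate 8 was the highest sham array for the sum and below the sham mean for the 3. Of 5 leukocyte miRNAs, miR-223-3p (0.86 ± 0.09) and miR-155-5p (1.68 ± 0.08) were called higher (limma adjusted p = 3.03e-04 and 2.25e-06). Those not called were miR-142a-3p at 0.26, miR-142a-5p at 0.13 and miR-150-5p at -0.22. The summed level of the 5 was 1.76, 1.71, 1.74 and 1.63 in LPS replicates 6, 10, 11 and 12, against 1.44, 1.03, 0.94 and 1.07 in sham replicates 5, 6, 7 and 8. It was highest on LPS replicate 6 and on sham replicate 5, the arrays that were also highest for the 3 miRNAs. LPS replicate 11 was next for this sum and lowest for the 3. Sham replicate 8 was next among the sham arrays for the sum and below the sham mean for the 3. The part of blood cells in the levels of the 3 miRNAs was not tested, and in whole kidney more cells of a type and more RNA per cell cannot be told apart.

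Array brightness was compared as well. The 75th percentile by which arrays were scaled was, in log2, 8.95 to 9.07 in LPS and 8.88 to 8.99 in sham arrays. The labelling spike-ins, RNAs added to each sample, were brighter on LPS arrays, at 10.78 to 10.96 against 10.64 to 10.71 on the log2 scale. Scaled to them, the median difference of all tested miRNAs was -0.23 in place of -0.08, and the 3 miRNAs differed by 0.91 (miR-574-5p), 0.87 (miR-1187) and 1.47 (miR-3082-5p). Relative to the median of all tested miRNAs the values are 1.14, 1.10 and 1.70 with both scalings by construction, since 1 factor per array shifts every miRNA alike.

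**Figure D5:**
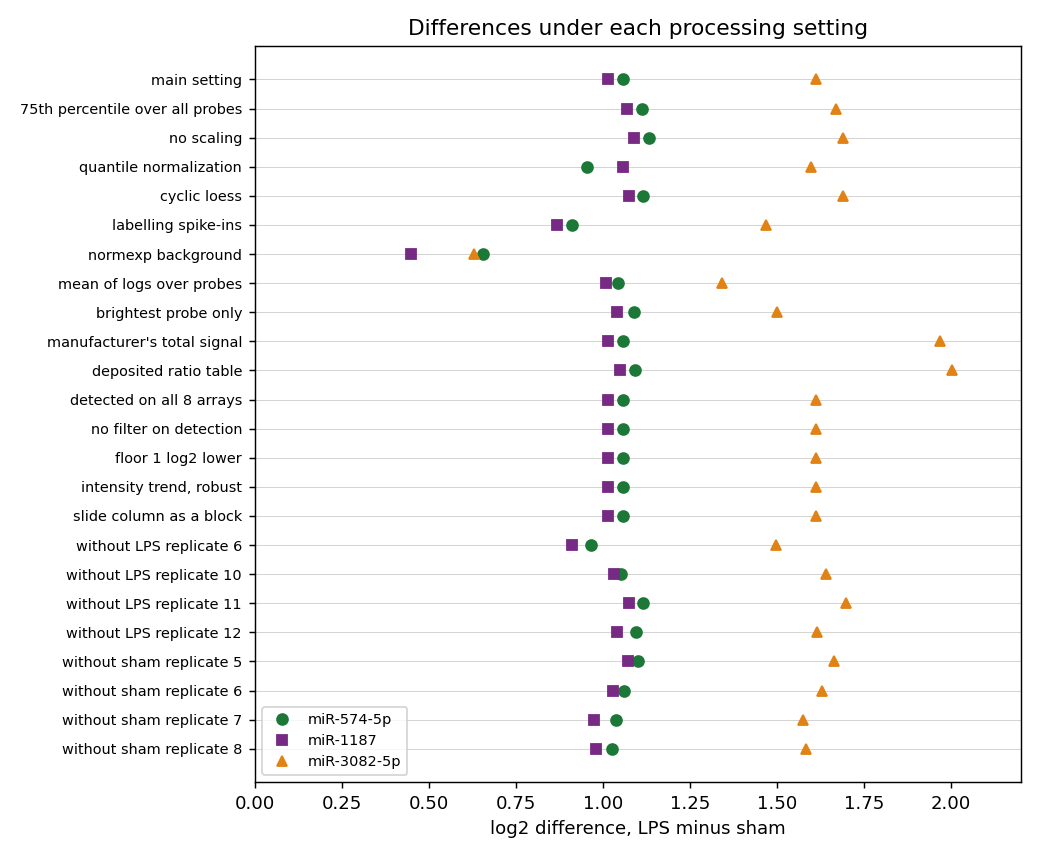
Log2 difference, LPS minus sham (horizontal axis), of miR-574-5p, miR-1187 and miR-3082-5p under the main setting and each of the 23 alternatives (vertical axis). All values lie above 0, those with normexp are the smallest (0.45 to 0.66), and miR-3082-5p reaches 2.00 in the deposited ratio table.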

How the data were processed

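The authors deposited 1 scanner output file per array, made with Agilent Feature Extraction 12.0.3.1 per the submitters' processing notes, and its spot intensities had been background-subtracted with spatial detrending and not scaled between arrays, per the file headers (design build mm9). A table of linear ratios per miRNA and array, deposited by the authors, served only as an alternative. Given 1 factor for each array and 1 for each miRNA, 100% of its entries for 383 miRNAs matched the manufacturer's total signal to 0.01 log2, so it is linear with each miRNA centred, and the origin of the array factors stays unknown. Its column medians were 0.958, 0.960, 1.01 and 1.03 for LPS replicates 6, 10, 11 and 12, and 0.995, 1.06, 1.05 and 0.980 for sham replicates 5, 6, 7 and 8.

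Outlier spots were left out, spots of a probe averaged, and each array scaled to the 75th percentile of the 551 probes that all 8 arrays measured above background. Probes of a miRNA were summed, floored at -4.68 and log2-transformed. Detection required over 50% of a probe's spots well above background, for any probe of the miRNA. The 338 miRNAs detected throughout at least 1 group were fitted with limma 3.58.1 (R 4.3.3; lmFit, eBayes, 2-sided p, Benjamini-Hochberg). The fit was tested on simulated data, and the outcome is not given here. No non-control spot was saturated. The number of arrays limits the precision.

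The 3 miRNAs, the lists and the rules for naming others (opposite arms, entries with repeat stretches, the 5 most alike miRNAs, and cell markers) were chosen with earlier results of these data known. Named TG-repeat entries are the 4 brightest tested. Alternatives covered scaling, background, probe summary, signal source, filter, floor, variance model, slide column, stretch length and leaving out each array. Sequences are from RefSeq or the scanner files.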

Additional observations from a re-analysis of the deposited data

Results flagged for a closer look

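No array stood far from the other 3 of its group for the levels of the 3 miRNAs, their 6 probes, or the tested repeat entries and cell markers. Of 64 groups of 4 arrays examined, 0 passed the limit, where chance gives about 3.20.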

How the results depend on the processing

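The log2 differences of miR-574-5p, miR-1187 and miR-3082-5p were positive in all 23 alternatives each, and moved by less than 1 SD between arrays in 22, 22 and 19 of them. The exceptions were normexp (0.66, 0.45 and 0.63) and, for miR-3082-5p, the mean of logs over probes (1.34), the manufacturer's total signal (1.97) and the deposited ratio table (2.00). The offset of normexp makes differences of dim probes smaller in itself. This setting also used the local background, which was lower than the amount subtracted in the main setting. For the 19-base probe of miR-1187 it was 26.0 in LPS and 26.5 in sham kidneys, against 43.4 and 43.2. The share of each in the smaller differences was not tested. Leaving out 1 array gave 0.96 to 1.12, 0.91 to 1.07 and 1.497 to 1.70, the lowest without LPS replicate 6 for all 3.

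Over all miRNAs, calls numbered 29 higher and 31 lower without the detection filter, where more miRNAs are tested. Lower calls were 53 with the 75th percentile over all probes, 49 without scaling, 155 with spike-in scaling, 53 in the deposited table and 45 with slide column as a block. The higher calls were 55, 57, 34, 46 and 35 in the same settings. Leaving out 1 array gave 33 to 54 higher and 49 to 106 lower calls. Without LPS replicate 12 they were 33 higher and 55 lower, and lower calls were 56 without LPS replicate 11, 49 without sham replicate 6 and 56 without sham replicate 7. The cause was not tested.

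The other AC-repeat entries called higher were 1 in place of 2 where detection on all 8 arrays or a stretch of at least 10 bases was required. This leaves out miR-669n, which passed the filter only through the LPS group. The count stayed at 2 without any 1 array. Both rises were known beforehand, so nothing is read from this count. TG-repeat entries called lower were 4, but 0 with the 75th percentile over all probes, no scaling, the deposited table or no filter. They were 1 with quantile normalization, 2 with cyclic loess, the mean of logs or the column block, and 6 with spike-in scaling. Leaving out 1 array gave 0 to 6 (0 without LPS replicate 11 or sham replicate 7, 1 without LPS replicate 12 or sham replicate 6, 2 without sham replicate 5).

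No paired analysis was possible by replicate number because the groups share only number 6, and the slide column was used as a block in its place.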
